A study of Mus musculus with 6 samples.

Results

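Stellate cell and collagen genes were followed in cultured primary mouse hepatocytes, as 10 genes chosen by symbol: *Ecm1*, *Dcn*, *Reln*, *Lrat*, *Pdgfrb*, *Acta2*, *Col1a1*, *Col1a2*, *Col3a1* and *Des*. All 10 had a row among the 25184 genes of the count table, and 6 of them (*Ecm1*, *Dcn*, *Reln*, *Lrat*, *Col1a2* and *Col3a1*) had enough counts to be tested, while *Pdgfrb*, *Acta2*, *Col1a1* and *Des* did not. The 6 libraries came from chow-fed mice, 3 of them *Sucnr1* fl/fl (both alleles of the succinate receptor gene floxed, no Cre) and 3 Hep-*Sucnr1* KO (the same floxed alleles with 1 copy of *Alb-Cre*, so that the deletion is driven by the albumin promoter, which is active in hepatocytes). The groups are called control and KO here. Hepatocytes were purified on a density gradient after enzymatic digestion and kept overnight on collagen-coated plates. The ages of these mice are not given in the sources used here. Each genotype had 1 library extracted on day 1 (control replicate 1, KO replicate 3) and 2 on day 2 (control replicates 2 and 3, KO replicates 4 and 5).

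Hepatic stellate cells lie between hepatocytes and the sinusoidal endothelium, store vitamin A as retinyl esters and, when activated in injured liver, turn into contractile myofibroblasts that lay down fibrillar collagen. *Lrat* makes the retinyl esters, *Reln*, *Des* and *Pdgfrb* mark these cells, *Acta2* marks the activated state, and *Col1a1*, *Col1a2* and *Col3a1* encode the chains of collagens I and III. *Ecm1* encodes a secreted matrix protein that restrains activation of latent TGF-beta and is made in liver by hepatocytes as well as by other cells, and *Dcn* encodes decorin, a small proteoglycan that binds collagen fibrils.

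Totals were between 30504248 and 38770694 counts per library, and a floor of 3 counts was worth 0.0780 to 0.0989 CPM (the count relative to the TMM-scaled library total). Hepatocyte markers such as *Alb* were abundant in every library, and the sum over 11 of them was 76830 to 110900 CPM. The deleted gene, *Sucnr1*, had 258, 118 and 103 counts in control replicates 1, 2 and 3 and 84, 28 and 5 in KO replicates 3, 4 and 5, which in KO replicate 3 came to 2.66 CPM, against 3.40 CPM in the lowest control. Libraries are bulk RNA, in which fewer cells of a type and less RNA per cell cannot be told apart.

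Upstream sequence is shown for *Ecm1* and *Reln*, whose levels varied together across libraries, and for *Col3a1*, a collagen gene near the detection floor. RefSeq (GRCm38.p6) gave a promoter for 7 of the 10 genes, and each sequence here is the 250 bases before the start site, 5′ to 3′ on the gene's strand. Motifs were searched on both strands. The TATA box was searched as TATAAA and the GC box, bound by SP1, as GGGCGG. The SMAD motif was searched as CAGACA, which holds the core that SMAD proteins bind, and the CCAAT box by its own letters. The CArG box of muscle genes was searched with any A or T in its middle. Capitals mark every match. No 2 motif matches shared a base in these windows.
*Ecm1*, chr3:95739570-95739819, minus strand: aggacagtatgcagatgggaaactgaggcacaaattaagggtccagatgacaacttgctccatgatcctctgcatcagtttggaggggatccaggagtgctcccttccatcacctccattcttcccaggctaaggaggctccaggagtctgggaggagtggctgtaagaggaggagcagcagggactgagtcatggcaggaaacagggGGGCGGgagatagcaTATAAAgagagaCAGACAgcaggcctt
*Reln*, chr5:22344706-22344955, minus strand: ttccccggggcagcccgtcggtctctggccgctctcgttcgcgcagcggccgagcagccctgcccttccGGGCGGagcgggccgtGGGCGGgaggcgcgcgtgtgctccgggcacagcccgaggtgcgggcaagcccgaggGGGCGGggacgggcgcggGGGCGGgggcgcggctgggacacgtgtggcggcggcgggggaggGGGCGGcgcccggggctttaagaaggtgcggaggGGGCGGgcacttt
*Col3a1*, chr1:45311288-45311537, plus strand: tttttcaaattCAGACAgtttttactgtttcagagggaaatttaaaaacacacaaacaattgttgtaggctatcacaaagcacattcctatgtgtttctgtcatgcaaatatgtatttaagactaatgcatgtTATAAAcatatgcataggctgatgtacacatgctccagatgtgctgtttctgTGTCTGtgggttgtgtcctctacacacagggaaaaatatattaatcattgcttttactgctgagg
The window of *Ecm1* held a TATA box 27 to 22 bases before the start site, a GC box and a SMAD motif. That of *Reln* held 6 GC boxes and no TATA box, with 80% G and C and 37 CpG, against medians of 52.4% and 6 CpG over the 32851 promoters of the table. The *Col3a1* window, at 35.2% G and C with no CpG, held the SMAD motif on each strand. Its TATAAA match lay 117 to 112 bases before the start site, farther upstream than that of *Ecm1*. Of all promoter windows, 12.4% held a TATA box, 32.7% a GC box, 17.1% the SMAD motif, 33.8% a CCAAT box and 1.47% a CArG box. *Ecm1* and *Reln* thus shared the GC box, a common motif.

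*Ecm1*, *Dcn* and *Reln* were read clearly in every library, whereas the vitamin A enzyme, the activation marker and the chains of collagens I and III were near the floor. On a per-length scale the mean over 6 libraries was 2.44 ± 1.19 CPM per kilobase of exon for *Ecm1* (SD, n = 6), which put it at percentile 71.6 of the 25130 genes with a length. *Dcn* followed at 0.782 ± 0.527 CPM per kilobase (percentile 59.2) and *Reln* at 0.145 ± 0.126 CPM per kilobase (percentile 43.9). The other 7 genes had means of 0.0152 (*Col1a1*) to 0.0406 (*Lrat*) CPM per kilobase, percentiles 20.8 to 31.2. *Lrat* stood next after *Reln*, with *Pdgfrb*, *Acta2*, *Col3a1*, *Col1a2*, *Des* and *Col1a1* after it.

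**Figure D1:**
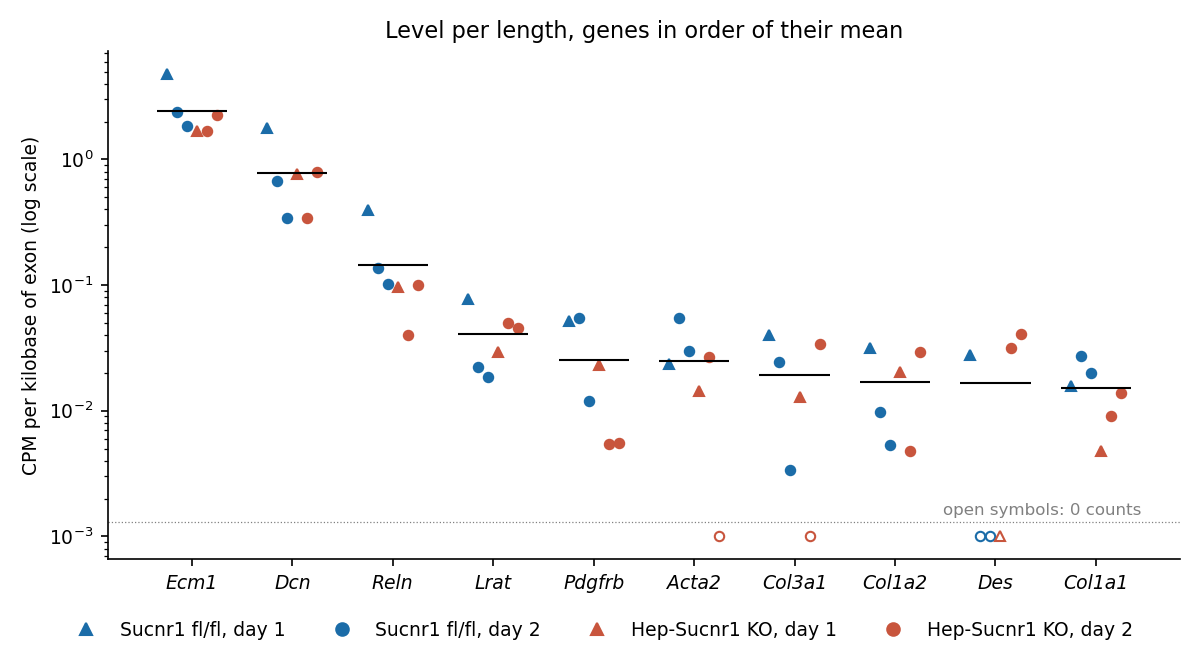
Level of each gene as CPM per kilobase of exon (log axis), 1 symbol per library, triangles for day 1 and circles for day 2, blue for control (Sucnr1 fl/fl) and red for KO (Hep-Sucnr1 KO), with the mean of the 6 libraries as a bar and libraries with 0 counts as open symbols at the bottom. Ecm1, Dcn and Reln had means of 2.44, 0.782 and 0.145 CPM per kilobase, and the other 7 lay at 0.0406 or below.

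Within a library *Ecm1* was above *Dcn* in 6 of 6 libraries, by 1.77 ± 0.51 on the log2 scale of CPM per kilobase, and *Dcn* was above *Reln* in 6 of 6, by 2.55 ± 0.55 (SD, n = 6). Each gave an exact sign-flip permutation p of 0.03125, the smallest that 6 libraries allow, and 0.141 after adjustment over the 9 neighbouring pairs. *Reln* was above *Lrat* in 5 of 6 libraries (exact permutation p = 0.0625, adjusted p = 0.188). From *Lrat* down, no pair of neighbours differed beyond its spread, with adjusted exact permutation p of 0.562 to 0.781. The first 4 places were the same with another gene length, another scaling or any library left out, and the 6 places after them kept their order with library size alone as scaling and changed it with another length or with any library left out.

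*Ecm1* is a minus-strand gene of 10 exon blocks on chromosome 3 (ENSMUSG00000028108, chr3:95734147-95739569 of GRCm38). It had 465, 200 and 142 counts in control replicates 1, 2 and 3 and 133, 143 and 188 in KO replicates 3, 4 and 5. As CPM these were 12.1, 6.01 and 4.68 against 4.21, 4.22 and 5.71. Control replicate 1 stood 2.01 times above the next library, and the remaining 5 libraries of the 2 genotypes overlapped.

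*Dcn* lies on the plus strand of chromosome 10 (chr10:97479609-97518143). Its counts were 399, 131 and 60 in control and 141, 68 and 153 in KO libraries, in the same order of replicates, or 10.4, 3.94 and 1.98 against 4.46, 2.01 and 4.64 CPM. The highest library was again control replicate 1, at 2.23 times the second, and the lowest library of each genotype, both of day 2, were nearly level.

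*Reln*, the gene of the secreted glycoprotein reelin, is on chromosome 5 (chr5:21884454-22344702, minus strand). It had 360, 107 and 73 counts in control and 73, 32 and 78 in KO libraries, which is 9.36, 3.22 and 2.41 against 2.31, 0.945 and 2.37 CPM. It was the tested gene of the 6 whose groups did not overlap, all KO libraries being the lower ones, although the lowest control and the highest KO value were 2.41 and 2.37 CPM, with 95% Poisson intervals of 1.89 to 3.02 and 1.87 to 2.95 CPM. Over all tested genes, 4.04% had all KO libraries under the lowest control. The exact permutation p of *Reln* was 0.1, the smallest that 3 against 3 libraries can give (two-sided). From highest to lowest library *Reln* spanned 9.91 times, against 5.25 times for *Dcn* and 2.87 times for *Ecm1*.

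**Figure D2:**
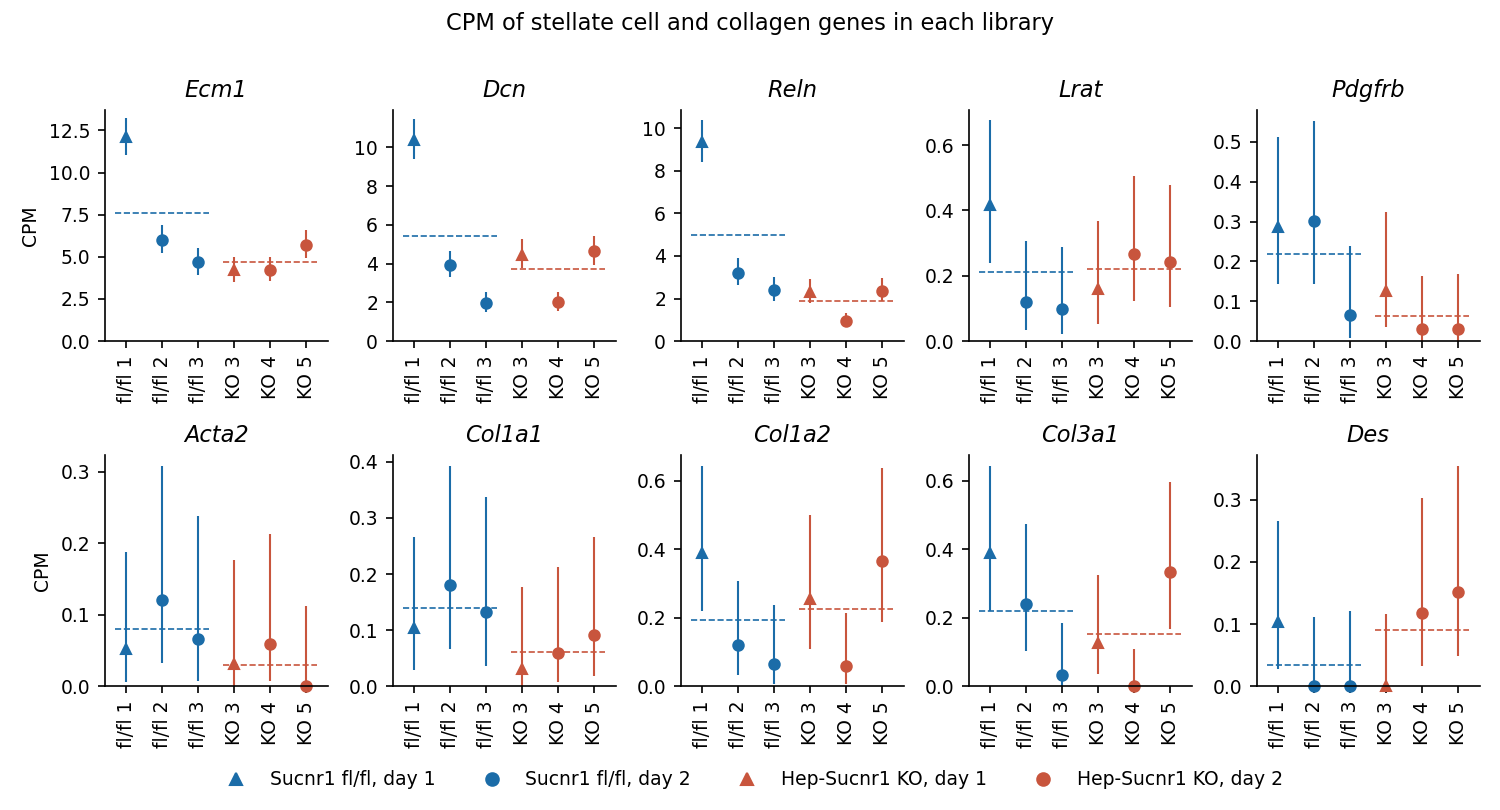
CPM of each gene in the 6 libraries on linear axes that start at 0, triangles for day 1 and circles for day 2, blue for control (Sucnr1 fl/fl) and red for KO (Hep-Sucnr1 KO), with 95% Poisson intervals (counting error only) and dashed group means. Control replicate 1 stands above the other libraries for Ecm1, Dcn and Reln (12.1, 10.4 and 9.36 CPM), and the intervals of the other 7 genes are wide.

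*Lrat*, which esterifies retinol for storage, had 16, 4 and 3 counts in control and 5, 9 and 8 in KO libraries. In CPM these were 0.416, 0.120 and 0.0989 against 0.158, 0.266 and 0.243. The day 1 library was highest of the control group and lowest of the KO group. *Pdgfrb*, the PDGF receptor of stellate cells and pericytes, had 11, 10 and 2 counts against 4, 1 and 1. *Acta2*, smooth muscle alpha actin, had 2, 4 and 2 against 1, 2 and 0, and *Des*, the intermediate filament desmin, had 4, 0 and 0 against 0, 4 and 5. Each 0 allows up to 3 counts, so neither presence nor absence of *Des* or *Acta2* transcripts was detectable in those libraries.

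Of the collagen genes, *Col1a2* had 15, 4 and 2 counts in control and 8, 2 and 12 in KO libraries. *Col3a1* had 15, 8 and 1 against 4, 0 and 11, and the lowest libraries of both genes were control replicate 3 and KO replicate 4, both of day 2. *Col1a1* had 4, 6 and 4 against 1, 2 and 3, and its groups did not overlap in CPM (0.104, 0.180 and 0.132 against 0.0316, 0.0590 and 0.0910), but 5 of the 6 counts were at most 4 and it was not tested. Its exact permutation p was also 0.1, and the 4.04% given beside *Reln* was counted over tested genes, which leaves *Col1a1* out. These chains of collagens I and III thus had at most 15 counts in any library.

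The genotype comparison asked whether these genes differed between control and KO hepatocyte cultures. None of the 6 tested genes passed an FDR of 0.05 in edgeR's quasi-likelihood test with extraction day as covariate, as was the case for 0% of all 15105 genes tested. At an unadjusted p below 0.05, edgeR called 563 of those genes, and DESeq2 called 7 at its FDR, of which 0 were among the 6. DESeq2 gave *Lrat*, *Col1a2* and *Col3a1* no adjusted p, so of the 6 it could call only *Ecm1*, *Dcn* and *Reln*. Among the 6, *Reln* had an unadjusted p below 0.05 and was lower in KO, and 1.81% of all genes tested were lower at that p. *Reln* was 4.99 ± 3.80 CPM in control and 1.87 ± 0.81 CPM in KO cells (SD, n = 3 each), a log2 fold change of −1.20 ± 0.42 (SE, edgeR with Benjamini-Hochberg adjusted p = 0.998).

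*Ecm1* was 7.60 ± 3.95 against 4.71 ± 0.86 CPM (SD, n = 3 each), with a log2 fold change of −0.58 ± 0.32 (SE) that did not pass the test (edgeR adjusted p = 0.998). *Dcn* was 5.43 ± 4.39 against 3.70 ± 1.47 CPM, with a log2 fold change of −0.31 ± 0.46. *Lrat*, *Col1a2* and *Col3a1* had log2 fold changes of 0.20 ± 0.63, 0.37 ± 0.76 and −0.45 ± 1.08, each smaller than its standard error. The median over the 6 was −0.38, with 4 lower and 2 higher, against a median of 0.0030 over all genes tested.

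These values changed when single libraries were left out. Without control replicate 1 the genotype log2 fold change was −0.11 for *Ecm1*, 0.16 for *Dcn* and −0.77 for *Reln*, 0 of the 6 had an unadjusted p below 0.05, and their median was 0.20. On day 2 alone, with 2 libraries of each genotype, *Reln* was 2.81 against 1.66 CPM, *Ecm1* 5.35 against 4.96 and *Dcn* 2.96 against 3.33. Library index names form 2 series, one of them made up of control replicates 1 and 2, and with that series as a further term the log2 fold change of *Reln* was −0.70, that of *Ecm1* −0.08 and that of *Dcn* 0.61. Without KO replicate 3 or 4, 0 of the 6 had an unadjusted p below 0.05, and without replicate 5 it was 3 of 6. Over all genes tested, 312, 509 and 830 were at that p without KO replicates 3, 4 and 5, against 563 with all libraries.

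**Figure D3:**
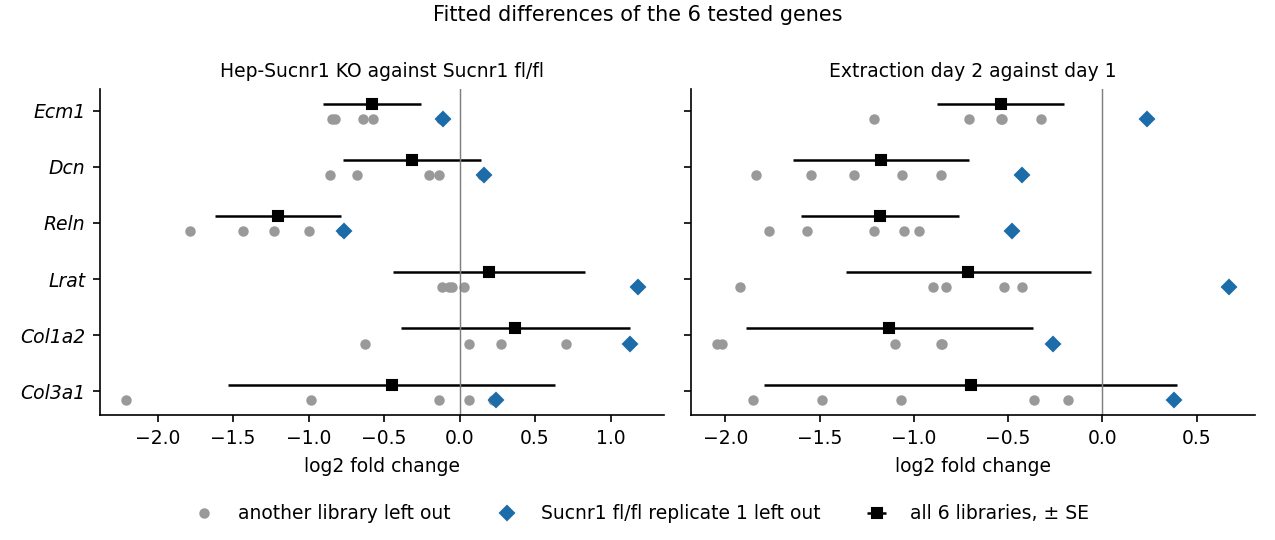
Log2 fold changes of the 6 tested genes by genotype (left) and by extraction day (right), black squares for all 6 libraries with standard errors, grey circles with 1 other library left out and blue diamonds without control replicate 1. Without that library the genotype value of Ecm1 was −0.11 and of Reln −0.77, and the day values of Ecm1, Lrat and Col3a1 were above 0.

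By extraction day, all 6 tested genes had lower fitted levels on day 2, and 0 of them passed an FDR of 0.05 in edgeR (0% of all genes tested, with 1132 at an unadjusted p below 0.05). DESeq2 called 225 at its FDR, and *Ecm1*, *Dcn* and *Reln*, the only ones of the 6 to which it gave an adjusted p, were not among them. *Reln* and *Dcn* had an unadjusted p below 0.05, and 2.33% of all genes tested were lower on day 2 at that p. The log2 fold change of *Reln* on day 2 against day 1 was −1.18 ± 0.42 (SE, edgeR adjusted p = 0.559) and that of *Dcn* −1.17 ± 0.46 (edgeR adjusted p = 0.627). Mean CPM over the libraries of day 1 and day 2 was 5.84 and 2.23 for *Reln* and 7.42 and 3.14 for *Dcn*. *Ecm1*, *Lrat*, *Col1a2* and *Col3a1* had log2 fold changes of −0.54, −0.71, −1.13 and −0.70 that did not pass the test. The median over the 6 was −0.92, against 0.017 over all genes tested. Without control replicate 1, which leaves 1 library on day 1, 3 of 6 were lower on day 2. Without KO replicate 3, which also leaves 1, the median was −1.80. The number with an unadjusted p below 0.05 was 0 without control replicate 2 or 3, 1 without KO replicate 4 and 4 without KO replicate 5. Over all genes tested those fits had 1494, 573, 919 and 1429 at that p, against 1132.

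Each day was also looked at by itself. In the pair of day 1 libraries *Ecm1* was 12.1 CPM in control and 4.21 in KO cells, *Dcn* 10.4 and 4.46, and *Reln* 9.36 and 2.31. All 3 were higher in the control library of that day, and on day 2 the differences of *Ecm1* and *Dcn* were small. The interaction of genotype and day had an unadjusted p below 0.05 for *Ecm1* and *Lrat* (3.69% of all genes tested), and 0 genes passed an FDR of 0.05 in edgeR (557 at an unadjusted p below 0.05, and 4 at the FDR of DESeq2). Its log2 value was 1.41 ± 0.44 for *Ecm1* (SE, edgeR adjusted p = 1.00) and 2.56 ± 0.98 for *Lrat* (edgeR adjusted p = 1.00).

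Control replicate 1 was the library with the highest CPM for 6 of the 6 tested genes, and for 18.2% of all genes tested. The 4 genes below the filter were highest elsewhere, *Col1a1*, *Pdgfrb* and *Acta2* in control replicate 2 and *Des* in KO replicate 5. A high count in 1 library helps a gene to pass the filter on mean count, so the 6 of 6 is not independent of that filter. *Col3a1* had 15 of its 39 counts in control replicate 1. Over the 6, log2 CPM differed from its average across libraries by a median of 1.14 in control replicate 1, 0.05 in replicate 2 and −0.79 in replicate 3, and −0.14, −0.95 and 0.24 in KO replicates 3, 4 and 5. The second highest library was KO replicate 5, of day 2. The median over all genes tested lay between −0.03 and 0.02 in every library.

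*Ecm1* and *Reln* varied together over the 6 libraries, with Pearson r = 0.91 (exact permutation p = 0.00833, 0.025 after adjustment over 3 pairs) and Spearman rho = 0.89 (exact permutation p = 0.0333). *Ecm1* and *Dcn* had r = 0.84 (exact permutation p = 0.0389, adjusted p = 0.0583) with rho = 0.49, and *Dcn* and *Reln* r = 0.86 (exact permutation p = 0.0653) with rho = 0.37. Without the 2 libraries farthest from the median of the first gene the values were 0.84, 0.92 and 0.89, a description on 4 libraries. Those left out were control replicate 1 and KO replicate 3 for the pairs with *Ecm1*. For *Dcn* and *Reln* they were control replicates 1 and 3. Without control replicate 1 alone the r values were 0.66, 0.49 and 0.59, each lower than with all 6 libraries. Within day 2 only 4 libraries remain, and no correlation was computed there. Per kilobase, *Dcn* was 0.183 to 0.458 of *Ecm1* and *Reln* 0.0238 to 0.0822 of *Ecm1*, with the highest ratio of *Dcn* in KO replicate 3 and that of *Reln* in control replicate 1.

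Among 11714 genes with a mean above 1 CPM, those most like *Ecm1* over the 6 libraries (Pearson r of log2 CPM, a description) were *Gja1*, the gap junction gene of connexin 43, at 0.987, *Rere* at 0.986, *Epha1* at 0.983, *Id4* at 0.982 and *Cyp4b1* at 0.981. *Reln* stood at rank 111 and *Dcn* at rank 307 of that order. For the mean of *Col1a1*, *Col1a2* and *Col3a1* the 5 were *Abcd4* (0.991), *Ccnf* (0.983), *Gnpda2* (0.981), *Taf11* (0.975) and *Tprgl* (0.974). The 3 chains themselves had at most 15 counts in any library.

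Other stellate cell markers were read at low level in part. Of 20 listed, all had a row and 10 were tested, and 0 were lower in KO at an unadjusted p below 0.05, with 0 past the FDR of edgeR and a median log2 fold change of −0.26. Without control replicate 1 that median was 0.28. *Steap4* was the most abundant of the list, at 990.5 ± 156.1 CPM in control cells, and every other gene of the list was far lower. Which cells *Steap4* transcripts came from was not tested. *Hgf*, the hepatocyte growth factor gene, had the largest negative value (−1.27 ± 0.65, not past the test). Control replicate 1 was highest for 6 of these 10.

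Other collagen chains spanned a wide range of levels. Of 18 other collagen chains 13 were tested, with 0 changed in either direction at an unadjusted p below 0.05 by genotype and a median of −0.15. Without control replicate 1 that median was 0.05. *Col18a1*, the precursor of endostatin, was the most abundant at 632.9 ± 79.8 CPM in control and 598.4 ± 26.7 CPM in KO cells (SD, n = 3 each). *Col5a2*, a chain of collagen V, had the largest negative value (−1.32 ± 0.65) and *Col6a1* the largest positive one (0.53 ± 0.63), both below 1 CPM. Control replicate 1 was highest for 7 of the 13.

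Of 23 small leucine-rich and glycoprotein matrix genes 14 were tested, and 1, the laminin chain *Lamc1*, was lower in KO at an unadjusted p below 0.05 (−0.34 ± 0.11, edgeR adjusted p = 0.998). Of all genes tested, 1.81% were lower at that p. The median of the 14 was −0.34, and control replicate 1 was highest for 10 of them. Without that library the median was −0.09. *Fn1*, the fibronectin gene, was the most abundant, at 2231 ± 313 against 1800 ± 100 CPM (log2 fold change −0.30 ± 0.14, not past the test), and *Lum*, the gene of lumican, a relative of decorin, had −1.13 ± 0.47. *Vtn* had the largest positive value, 0.15 ± 0.15.

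Genes that modify and fold collagen were tested for 17 of 21, with 0 at an unadjusted p below 0.05 by genotype and a median of 0.04. *P4hb*, a subunit of prolyl 4-hydroxylase, was the most abundant at 1103 ± 227 against 1190 ± 76 CPM, and *Pcolce* (0.41 ± 0.35) and *P3h3* (−0.65 ± 0.55) had the extreme values. Among 18 tested of 23 TGF-beta genes, 1 was lower and 0 higher in KO at an unadjusted p below 0.05. This was *Smad3*, a transducer of the pathway (−0.41 ± 0.13, edgeR adjusted p = 0.998), and 1.81% of all genes tested were lower at that p. Of the 18, 16 had values below 0 (median −0.33), and control replicate 1 was highest for 10, as for 18.2% of all genes tested. *Ccn2*, a target of the pathway, had −1.26 ± 0.74 and the ligand gene *Tgfb3* 0.30 ± 0.66.

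Of 20 myofibroblast and contractile genes 18 had a row and 12 were tested, and 1 was higher in KO at an unadjusted p below 0.05, as were 1.91% of all genes tested. This was *Timp1*, an inhibitor of matrix metalloproteinases, at 0.494, 0.752 and 0.989 CPM in control and 1.01, 3.40 and 1.58 CPM in KO libraries (log2 fold change 1.37 ± 0.37, edgeR adjusted p = 0.998). Its groups did not overlap, with all KO libraries above the highest control, as for 6.55% of all genes tested, and its highest library was KO replicate 4, the lowest for *Reln*. *Spp1*, the osteopontin gene, was the most abundant of the list (335.4 ± 67.3 against 398.6 ± 110.0 CPM), and *Postn* had −0.80 ± 0.86.

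Retinoid storage and metabolism genes were tested for 18 of 20, with 0 lower in KO at an unadjusted p below 0.05 and a median of 0.10. The retinal reductase gene *Rdh11* was higher at that p (log2 fold change 0.37 ± 0.15, edgeR adjusted p = 0.998), as were 1.91% of all genes tested. *Rbp4*, the serum retinol carrier made by hepatocytes, was at 1450 ± 96 against 1454 ± 182 CPM, and *Cyp26b1*, which clears retinoic acid, had the largest negative value (−0.54 ± 0.62). Of the reelin receptors and adaptors, *Vldlr*, *Lrp8* and *Dab2* were tested and none reached an unadjusted p below 0.05 (0.93 ± 0.59 for *Lrp8* and −0.45 ± 0.47 for *Dab2*). Of the PDGF ligands and receptors 3 of 5 were tested, with *Pdgfa* the most abundant (33.5 ± 8.7 against 30.3 ± 5.9 CPM), *Pdgfc* at 0.41 ± 0.38 and *Pdgfb* at −0.50 ± 0.41. Filament and actin relatives of *Des* and *Acta2* were tested for 7 of 10, 7 of the 7 had values below 0 without reaching an unadjusted p below 0.05, and *Krt18*, a keratin of hepatocytes, was the most abundant (2828 ± 542 against 2543 ± 727 CPM).

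Markers of other liver cells were compared beside these values. Sinusoidal endothelial markers were highest in control replicate 1 for 12 of 12 genes, with a summed level of 122.7 CPM there and of 45.1 to 79.8 CPM in the other 5 libraries. That library was thus highest for these markers and for the 6 tested genes, and the order of the other libraries was not the same. On day 1 the endothelial sum was 122.7 CPM in control replicate 1 and 45.1 CPM in KO replicate 3. On day 2 it was 70.0 and 70.6 CPM in control and 79.8 and 70.2 CPM in KO libraries. With all 6 libraries the gene values were lower in KO for 11 of 12 (median −0.25), with 0 of 12 at an unadjusted p below 0.05. Kupffer cell markers were highest in control replicate 1 for 0 of 12 genes, and their sum was 57.9 to 184.3 CPM in control and 37.8 to 149.9 CPM in KO libraries. By day, endothelial markers were higher on day 2 for 11 of 12 genes without control replicate 1. With all 6 libraries they were lower on day 2 for 11 of 12 (median −0.24), as were the 6 genes, and 0 of 12 had an unadjusted p below 0.05. Kupffer cell markers went the other way, with 8 of 12 higher on day 2 at an unadjusted p below 0.05 (median 2.06), where 5.16% of all genes tested were higher at that p. Without KO replicate 3 or control replicate 3 that number was 0 of 12. Neutrophil and erythroid markers had day medians of 2.06 and 1.43. The interaction of genotype and day had an unadjusted p below 0.05 for 8 of 12 endothelial and 4 of 12 Kupffer cell markers. The part of these cell types in the differences of *Reln*, *Dcn* and *Ecm1* was not tested. Their defining markers *Stab2* and *Clec4f* were read in every library.

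**Figure D4:**
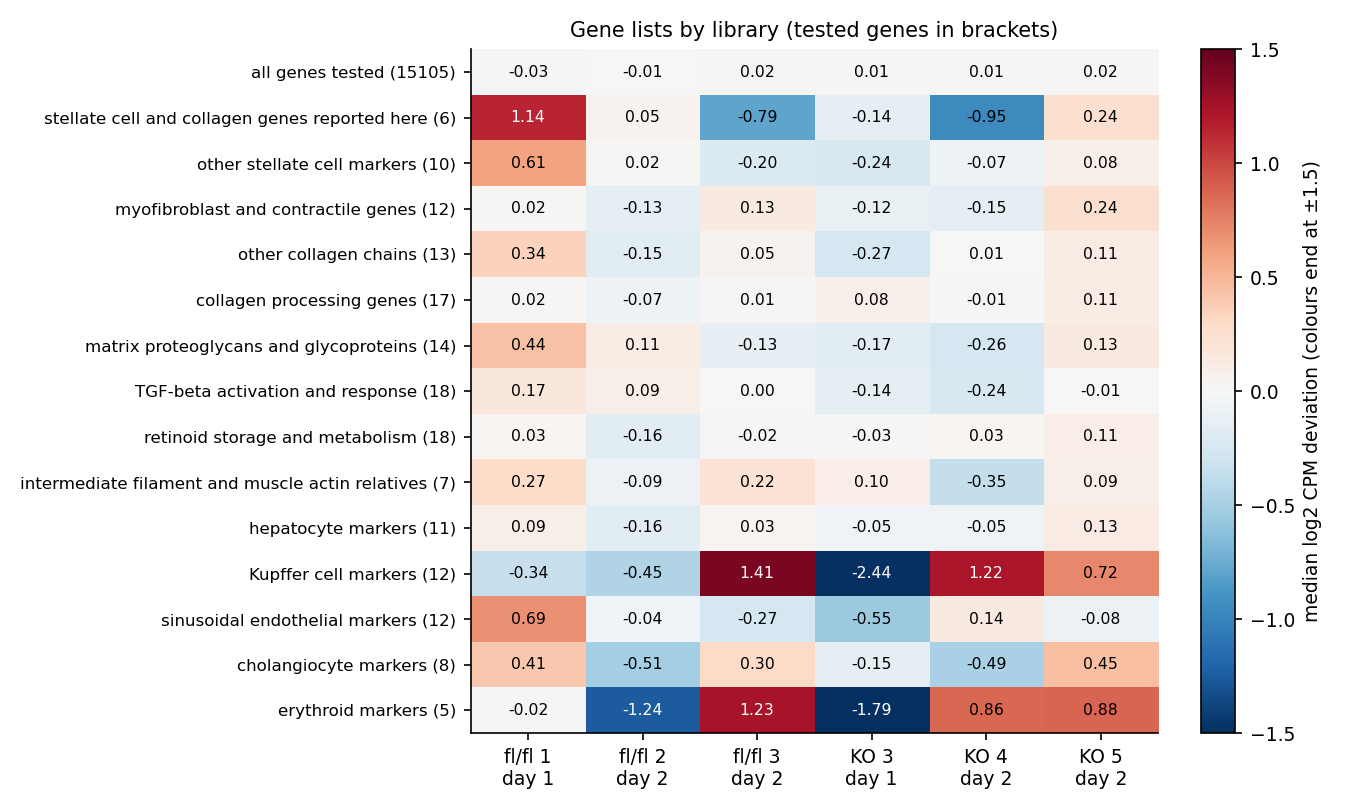
Median over the tested genes of each list of how far log2 CPM lay from its average across the 6 libraries, with the number of genes in brackets, red above and blue below that mean. The stellate cell and collagen genes are highest in control replicate 1 (1.14), as are other stellate cell markers (0.61) and sinusoidal endothelial markers (0.69), whereas Kupffer cell markers are highest in control replicate 3 (1.41).

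The remaining marker lists gave 0 genes at an unadjusted p below 0.05 by genotype. Cholangiocyte markers (8 of 10 tested) had a median of −0.06, and portal fibroblast (3 of 12 tested), neutrophil (4 of 7), erythroid (5 of 6) and hepatocyte markers (11 of 12) had medians of 0.36, 0.44, −0.13 and −0.04. Of the mesothelial markers 1 of 8 was tested, *Krt19*, which bile duct cells share, at −0.39 ± 0.74. Portal fibroblast and mesothelial markers, from other cells that make collagen, were thus mostly too low to test.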

How the data were processed

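Poly(A) RNA of hepatocytes was sequenced in 3 control (*Sucnr1* fl/fl) and 3 KO (Hep-*Sucnr1* KO) libraries as stranded read pairs. The authors trimmed reads with Trim Galore 0.6.7, aligned them to GRCm38 with STAR 2.7.10a and counted pairs per gene by strand with featureCounts on the Ensembl annotation, and deposited raw counts for 25184 genes. How pairs matching several genes were counted is not given in the sources used here, so same-strand neighbours within *Ecm1* (*Mir7014*) and *Col3a1* (*Gm47302*) could not be separated. Extraction day and groups came from the labels, and nothing in the labels beyond sample names says that replicates are separate mice, so p-values measure the spread between these samples, which may be technical.

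Genes with a mean DESeq2-normalized count above 5 were kept (15105). Genotype and day were fitted together in edgeR 4.0.16 (TMM, quasi-likelihood test, Benjamini-Hochberg adjustment, R 4.3.3), all libraries sharing 1 estimate of spread, and an interaction was added in a further fit. DESeq2 1.42.0 was an alternative. Single values were compared by two-sided exact permutation tests. CPM used TMM factors, log2 CPM a prior count of 2, and lengths were exon unions of GENCODE M21 (GRCm38). Poisson intervals and floors cover counting error only. The edgeR fit was tested on simulated counts. Every one of the 10 genes was named, and from each further list the most abundant gene and the extreme genotype values, along with genes at an unadjusted p below 0.05 where their list had 1. Results for some genes of these lists are not reported here. The genes and lists were chosen with earlier results of these data known. Alternatives covered test, scaling, filter, covariates, index series and each library left out. Counts of the 6 genes under these settings were added after seeing the data. Promoters were taken from RefSeq (GRCm38.p6).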

Additional observations from a re-analysis of the deposited data

Results flagged for a closer look

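*Lrat* and *Des* were set apart because every KO library was below the control library on day 1 and above both control libraries on day 2. *Dcn*, *Col1a2* and *Col3a1* also had KO means below the control on day 1 and above it on day 2, but their day 2 libraries overlapped. For *Lrat*, Hep-*Sucnr1* KO minus *Sucnr1* fl/fl was lower than 0 on day 1 (0.158 against 0.416 CPM) and above 0 on day 2 (0.254 against 0.110 CPM), and the difference on day 2 exceeded that on day 1 by 0.4025 CPM. The interaction in edgeR had an unadjusted p of 0.0404 and an adjusted p of 1.00. It was fitted to the values by which *Lrat* was picked, so it gives no separate support. Day 1 held 1 library of each genotype, and the share of all genes with this order was not counted. For *Des* the values were 0 against 0.104 CPM on day 1 and 0.135 against 0 CPM on day 2, a change of 0.2389 CPM. *Des* was too low for the fit, so its difference between days was not tested, and with 0 to 5 counts per library every value was near the floor of 3 counts.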

How the results depend on the processing

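No adjusted p of the 6 tested genes was below 0.05 under any alternative, and it ranged from 0.448 to 1.00 for genotype and from 0.189 to 1.00 for day. DESeq2 gave no adjusted p for *Lrat*, *Col1a2* and *Col3a1*. Of 83 alternative genotype values 70 kept their direction, and of 77 day values 74. With the index series as a term the genotype log2 fold change was 2.04 for *Col3a1* and 0.61 for *Dcn*, and with day 2 libraries alone 0.22 and 0.15, against −0.45 and −0.31, and the cause was not tested. With each library left out, the genotype value ranged from −0.62 to 1.13 for *Col1a2*, −2.21 to 0.24 for *Col3a1*, −0.86 to 0.16 for *Dcn*, −0.12 to 1.18 for *Lrat*, −0.84 to −0.11 for *Ecm1* and −1.78 to −0.77 for *Reln*. The day value ranged from −1.21 to 0.24 for *Ecm1*, −1.85 to 0.38 for *Col3a1*, −1.92 to 0.67 for *Lrat*, −2.04 to −0.26 for *Col1a2*, −1.84 to −0.42 for *Dcn* and −1.77 to −0.48 for *Reln*. Of the 6 genes, the number with an unadjusted genotype p below 0.05 was 2 without a filter, 0 with the index term or day 2 alone and 0 to 3 with a library left out, against 1. Over all genes fitted those numbers were 757, 94, 311 and 311 to 830, against 563. For day it was 0 with the index term and 0 to 4 with control replicate 2 or 3 or KO replicate 4 or 5 left out, against 2. Over all genes tested the day numbers were 572 and 573 to 1494, against 1132. Over all genes DESeq2 called 7 by genotype, 225 by day and 4 by interaction at an FDR of 0.05, and edgeR without a filter called 122 by day, where edgeR called 0. With a library left out edgeR called 0 to 29 by day, 29 without control replicate 2, and 0 by genotype. Scaling moved the median of all genes by less than 0.1 (log2) and turned no direction of the 6. No paired analysis was possible because the groups share only the replicate number 3. Depth limits *Pdgfrb*, *Acta2*, *Col1a1* and *Des*, and with 3 libraries per group a change had to be large against the spread to pass.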
